A study of Sus scrofa with 13 samples.

Results

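Grown muscle that lacks dystrophin was set against newborn muscle that has it, to see which newborn features the grown knockout kept and which of its features belonged to neither newborn nor mature muscle. The comparison used 6 of the 13 biceps femoris samples of the series: the 3 titled DMD, 3 months of age, and the 3 titled wildtype, 2 days of age. The 3 wild-type samples of 3 months served as a reference for mature muscle, and 4 knockout samples of 2 days entered the fit as a source of spread between animals and are otherwise given as values for a few genes and lists. All samples were from German Landrace pigs, and the labels give one array of total RNA for each sample. The knockout pigs (dmd knockout) were clones made by nuclear transfer from primary kidney cells, in which a modified bacterial artificial chromosome removed exon 52 of DMD. Knockout muscle was taken at necropsy directly after the animal's own death, and wild-type muscle after euthanasia at matching ages. Genotype, age and manner of death therefore differ together between grown knockout and newborn wild type, and their parts cannot be told apart. The series calls its samples biological replicates, but the labels do not say whether knockout animals shared a donor cell clone. Below, newborn wild type, grown wild type and grown knockout name these 3 groups of 3.

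Dystrophin links the actin cytoskeleton of the muscle fibre to a membrane complex and through it to the extracellular matrix. Fibres without it tear, die and are replaced by regeneration, which runs again through parts of the developmental programme, while macrophages clear debris and fibroblasts lay down matrix. Postnatal growth of normal muscle replaces fetal contractile isoforms by adult ones and raises the glycolytic and calcium-buffering equipment of fast fibres.

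The deposited values are log2 levels of 21893 probe sets, of which 11028 carry a single gene symbol, and 10283 genes remained with 1 probe set each. Median levels of the 13 arrays lay between 7.32 and 7.38, and 25th percentiles between 6.53 and 6.61. No fold is given where the lower group's mean was below these 25th percentiles. A log2 difference from such a mean is the fitted difference between the deposited signals; no detection call was used here to say whether the low signal stood above background. The 95th percentiles ran from 9.21, in newborn wild-type replicate 3, to 9.83, and in grown knockout from 9.64. A single axis held 44.9 percent of the spread within groups, and newborn wild-type replicate 3 lay furthest out on it. The arrays' mean correlation with the others ran from 0.918, in newborn wild-type replicate 3, to 0.964. Of 10 skeletal muscle markers 4 were measured, and ACTA1, NEB and MYLPF differed between grown knockout and newborn wild type by 0.09, 0.11 and 0.16, none of them called. CKMT2, described with the energy genes, was the 1 lower marker (-0.99).

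The targeted gene, DMD, measured 11.84, 11.65 and 11.53 in grown knockout and 12.38, 12.29 and 11.53 in newborn wild type. The groups touched at 11.53, and the difference of -0.40 ± 0.18 (SE) did not pass the test (limma, adjusted p = 0.226). A lower probe set of DMD differed by -0.19 (adjusted p = 0.548). The sources used here do not place these probes relative to exon 52, so the values do not check the deletion. UTRN, the dystrophin-related utrophin, differed by -0.04 ± 0.19 (adjusted p = 0.919).

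Between grown knockout and newborn wild type, 595 genes passed limma's test at an adjusted p of 0.05, which is 5.79 percent of the genes tested. Of these, 472 were higher in grown knockout (4.59 percent) and 123 lower (1.2 percent). Past a 2-fold difference stood 206 higher and 26 lower genes. Over all probe sets the count was 1031. It fell to 478 without grown knockout replicate 3 and to 638 without grown knockout replicate 2, and rose to 1690 without newborn wild-type replicate 2. The share of calls that were higher was 81.6 percent, and 69.4 percent without newborn wild-type replicate 3. The median difference over all genes was -0.03 in log2. An unadjusted p under 0.05 was held by 2573 of the 10283 genes, higher and lower together. Normal growth, from newborn to grown wild type, gave 342 called genes (3.33 percent of those tested), with 1.94 percent raised and 1.39 percent lowered. Grown knockout against grown wild type gave 757 (7.36 percent), with 5.76 percent higher and 1.6 percent lower in grown knockout.

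Each gene was then placed by all 3 groups. A gene was called kept where normal growth moved it, grown knockout differed from grown wild type in the opposite direction, and the 95 percent interval of grown knockout minus newborn wild type lay wholly within 1 log2 unit of 0. The word refers to the level in newborn wild type and not to the course of a level in knockout animals. Newborn knockout arrays enter the class only through the estimate of spread and the choice of probe set. There were 135 kept genes, 1.31 percent of all genes, 66 above grown wild type and 69 below. A further class, partly kept, held genes whose move was called but smaller than in normal growth; it had 10 members (0.0972 percent), 5 of them also kept. A gene was above both where grown knockout exceeded both wild-type groups by the test, which held for 276 genes (2.68 percent), and below both in the mirror case, which held for 26 (0.253 percent). Only 1 gene was kept and above both. The grown wild-type arrays enter both tests behind the kept class, and an error in them alone moves those tests in opposite directions; the grown knockout arrays likewise enter both tests behind the other classes. Counts of kept genes were 73 without grown wild-type replicate 3, 87 without grown knockout replicate 1 and 224 without newborn wild-type replicate 3. Genes above both numbered 152 without grown knockout replicate 3. Genes below both numbered 7 without grown knockout replicate 3, 12 without replicate 1 and 17 without replicate 2, 13 and 15 without grown wild-type replicates 2 and 3, and 40 without newborn replicate 3. Membership held when each of the 9 arrays was left out in turn for 48 kept genes, 130 genes above both and 3 below both.

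**Figure D1:**
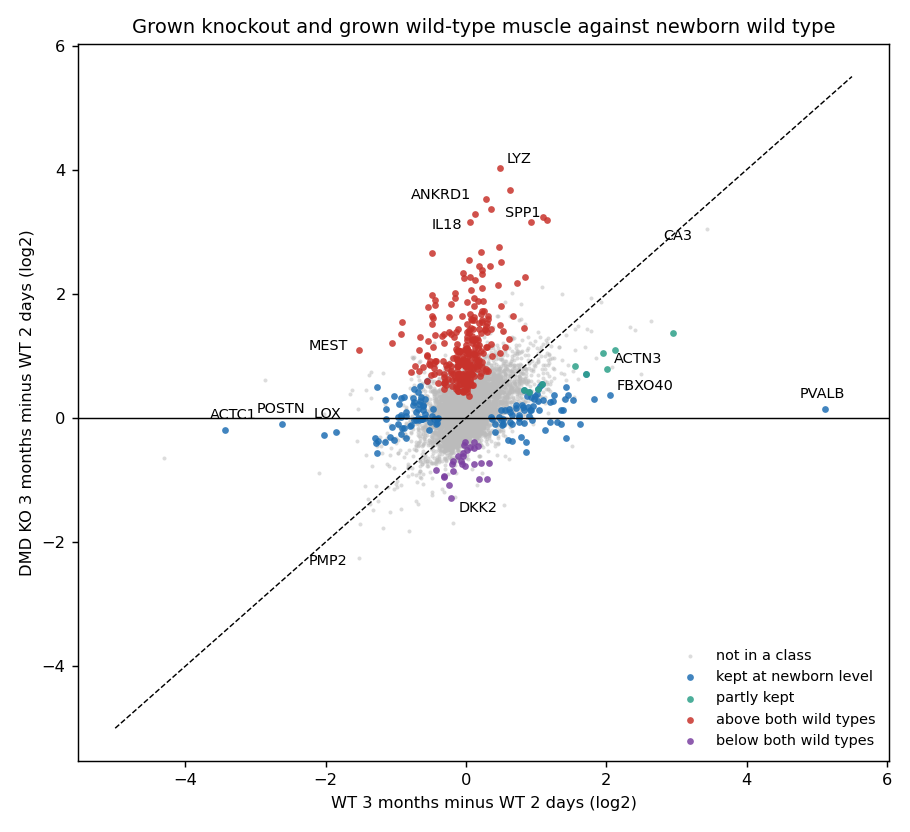
Each point is 1 of 10283 genes; the horizontal axis is grown minus newborn wild type and the vertical axis grown knockout minus newborn wild type, both in log2 units, and the axes share the newborn arrays. Kept genes lie along the horizontal line at 0 (ACTC1 to the left, PVALB to the right), genes above both stand high near the middle (LYZ at 4.02), and genes near the dashed diagonal, such as CA3, differed from newborn wild type by similar amounts in both grown groups.

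Cardiac alpha-actin was the member of the kept class furthest above grown wild type. ACTC1, the actin of fetal skeletal muscle and adult heart, measured 12.46, 12.38 and 12.23 in grown knockout, 12.67, 12.45 and 12.53 in newborn wild type and 8.84, 9.01 and 9.47 in grown wild type. Grown knockout overlapped newborn wild type and stood more than 2 log2 units above every grown wild-type array. The difference from newborn was -0.19 ± 0.23 (95 percent interval -0.69 to 0.30, adjusted p = 0.62), while normal growth lowered ACTC1 10.9-fold (-3.44 ± 0.23, adjusted p = 1.65e-05). A second ACTC1 probe set gave -0.28 against newborn and -2.46 for normal growth. ACTC1 stayed in the class with any of the 9 arrays left out. ACTC1 was the only kept one of 6 measured genes listed for developing muscle, of which only ACTC1 and the light chain MYL4 are contractile isoforms. Neither MYH3 nor MYH8, the embryonic and neonatal myosin heavy chains, was matched by symbol.

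Matrix genes were among those at the newborn wild-type level and above grown wild type. Newborn knockout arrays lay lower: the mean over 16 collagen chains was 8.02 to 8.13 there, against 8.77 to 8.90 in grown knockout and 8.79 to 8.86 in newborn wild type. Over 9 small leucine-rich proteoglycans it was 8.16 to 8.59, against 9.62 to 9.70 and 9.20 to 9.75. POSTN, the matricellular protein periostin, measured 11.95, 11.69 and 11.82 in grown knockout, 11.85, 11.76 and 12.14 in newborn wild type and 9.74, 8.31 and 9.85 in grown wild type. The first 2 groups overlapped, and both lay above all grown wild-type arrays. In newborn knockout POSTN was 8.80 to 10.35, below every grown knockout and newborn wild-type array. POSTN differed from newborn by -0.10 ± 0.40, with an interval of -0.97 to 0.77 that only just met the limit, and left the class in 6 of 9 leave-outs, any of the 6 compared arrays. LOX, which cross-links collagen and elastin, was firmer. It measured 9.55, 9.67 and 9.80 in grown knockout, 9.95, 9.96 and 9.79 in newborn and 8.28, 7.90 and 7.94 in grown wild type. LOX differed from newborn by -0.23 ± 0.15 (adjusted p = 0.381) and exceeded grown wild type 3.10-fold (adjusted p = 5.5e-05), in the class under all 9 leave-outs.

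Of 17 matricellular and elastic-fibre genes, 5 were kept: POSTN, LOX, SPARC, MFAP5 and FBN1 (fibrillin-1, the microfibril backbone). MFAP5, a microfibril protein, was nearest to newborn, at -0.01 ± 0.15 against -1.14 for normal growth. Of 16 collagen chains 4 were kept: COL1A2, COL3A1, COL5A2 and COL14A1. COL3A1, a fibrillar chain abundant in young and healing tissue, measured 9.71, 9.55 and 9.59 in grown knockout, 9.24, 9.37 and 9.28 in newborn and 8.72, 8.48 and 8.45 in grown wild type. The COL3A1 groups did not overlap: grown knockout was within the limit but above newborn on every array, by 0.32 ± 0.11 (adjusted p = 0.118). COL5A2 was likewise slightly above newborn, by 0.20 ± 0.09 (adjusted p = 0.204). Of 9 small leucine-rich proteoglycans BGN (biglycan) was kept, at 0.26 ± 0.12 above newborn. SPARC, MFAP5, COL1A2, COL3A1, COL5A2 and BGN held in all 9 leave-outs, FBN1 in 6 and COL14A1 in 2. Over the 16 collagens the median difference between grown knockout and newborn was -0.11, against -0.43 for normal growth.

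Among other genes kept above grown wild type, S100A11, a calcium-binding partner of annexins, measured 11.10, 10.96 and 11.29 in grown knockout and 10.19, 10.81 and 10.88 in newborn wild type. Its groups did not overlap, and S100A11 held in 4 of 9 leave-outs. GK, glycerol kinase, and LRCH2 completed the 6 largest, holding in 6 and 5 leave-outs. SGCE, epsilon-sarcoglycan, a relative of the alpha-sarcoglycan of the dystrophin complex, measured 8.41, 8.65 and 8.68 in grown knockout, 8.51, 8.40 and 7.88 in newborn and 7.52, 7.14 and 7.36 in grown wild type. SGCE overlapped newborn and lay above every grown wild-type array, and it held in all 9 leave-outs. Of the 7 measured genes of the dystrophin complex, SGCE and SNTB1 (beta-1-syntrophin, kept below grown wild type) were kept. SSPN (sarcospan) was lower than in newborn (-0.76 ± 0.18, adjusted p = 0.0311), a call lost without grown knockout replicate 1 or 3 or newborn replicate 1, at an adjusted p of up to 0.144 and a difference of -0.61.

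On the other side stood genes that normal growth raised and that in grown knockout lay near newborn wild type. PVALB, the calcium-binding parvalbumin of fast fibres, measured 5.80, 6.67 and 5.49 in grown knockout and 6.05, 5.27 and 6.22 in newborn wild type, against 11.07, 10.42 and 11.37 in grown wild type. The low groups overlapped and lay below the 25th percentiles of the arrays or close to them, about 5 log2 units under grown wild type. PVALB differed from newborn by 0.14 ± 0.32 (interval -0.54 to 0.83, adjusted p = 0.798) and its signal rose in normal growth by 5.11 ± 0.32 (adjusted p = 1.46e-05). Its interval widened past the limit without grown knockout replicate 1 or 3 or newborn replicate 1 or 3. HRC, a calcium-binding protein of the sarcoplasmic reticulum, was kept below grown wild type and ASPH above it. With PVALB they made 3 kept of 11 measured calcium-handling genes. None of the 11 was called against newborn by limma. An unadjusted p under 0.05 was held by 3 of the 11, all lower, against 2573 of all 10283 genes in either direction.

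Part of glycolysis lay near the newborn wild-type level. Normal growth raised 13 of 22 glycolysis and glycogen genes (median 0.98), while grown knockout exceeded newborn for 2 of 22 by the test (median 0.30). At an unadjusted p under 0.05, 9 of the 22 were higher than newborn, where 2573 of all 10283 genes had such a p in either direction. Higher without overlap were 8 of the 22, against 15.1 percent of all genes. Over the 22 the mean was 9.85 to 10.02 in grown knockout, 9.29 to 9.80 in newborn wild type and 9.40 to 9.62 in newborn knockout. Change with age within the knockout was not tested. The kept members were 5: TPI1, PGK1, PGAM2, PKM and PFKFB1. TPI1, triosephosphate isomerase, measured 9.72, 9.91 and 9.53 in grown knockout, 9.97, 9.72 and 9.64 in newborn and 11.15, 10.78 and 10.97 in grown wild type. TPI1 overlapped newborn and fell short of every grown wild-type array, with a difference from newborn of -0.06 ± 0.15 (adjusted p = 0.836). PGAM2, the muscle phosphoglycerate mutase, measured between 9.64 and 10.30 in grown knockout, against 9.65, 9.51 and 9.85 in newborn and 11.06, 10.83 and 11.35 in grown wild type. All 5 held in all 9 leave-outs. Without newborn replicate 1 the count of 2 higher glycolysis genes became 6, and without grown knockout replicate 2 or 3 it became 1. The 2 called were GYG1 (glycogenin, the primer of glycogen; 1.15 ± 0.13, adjusted p = 0.000276) and PGM1, phosphoglucomutase (1.09 ± 0.22, adjusted p = 0.0146). PGM1 was partly kept, between newborn and grown wild type, and its call was lost without grown knockout replicate 2 or 3 (adjusted p up to 0.0609).

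AK1, adenylate kinase of the cytosol, measured 9.25, 9.62 and 8.92 in grown knockout, 9.83, 9.39 and 9.54 in newborn and 11.04, 10.85 and 11.13 in grown wild type. Here too the young and the knockout values overlapped, and AK1 stood 3.35-fold below grown wild type (adjusted p = 0.0017). FBXO40, a muscle ubiquitin ligase adaptor, measured 7.44, 7.78 and 7.70 against 7.19, 7.65 and 6.97 in newborn and 9.57, 9.20 and 9.18 in grown wild type. FBXO40 differed from newborn by 0.37 ± 0.18 (adjusted p = 0.258). MSTN, myostatin, the inhibitor of muscle growth, measured 8.18, 8.27 and 8.08 against 8.27, 7.67 and 7.70 in newborn and 9.62, 9.06 and 9.55 in grown wild type. FBXO40 and MSTN held in all 9 leave-outs and AK1 in 7. PTER and FMO2, a flavin monooxygenase, completed the 6 furthest below grown wild type, and held in 7 and 9.

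Fast-fibre contractile genes were divided. Normal growth raised 6 of 9. The list's mean was 11.06 to 11.27 in grown knockout, 10.84 to 11.21 in newborn wild type and 10.43 to 10.76 in newborn knockout. TNNC2 (fast troponin C) and ATP2A1 (the fast calcium pump SERCA1) were kept, with differences from newborn wild type of 0.04 and -0.35. These were thin calls: TNNC2 held in 4 and ATP2A1 in 1 of 9 leave-outs. ACTN3, alpha-actinin of fast fibres, measured 9.98, 10.06 and 9.81 in grown knockout, 9.36, 8.86 and 9.25 in newborn and 11.06, 10.89 and 11.57 in grown wild type. The 3 groups did not overlap, with grown knockout in the middle, and ACTN3 was partly kept (0.79 ± 0.17, adjusted p = 0.0201). The ACTN3 call was lost without grown knockout replicate 1 or 2 (adjusted p up to 0.0774).

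**Figure D2:**
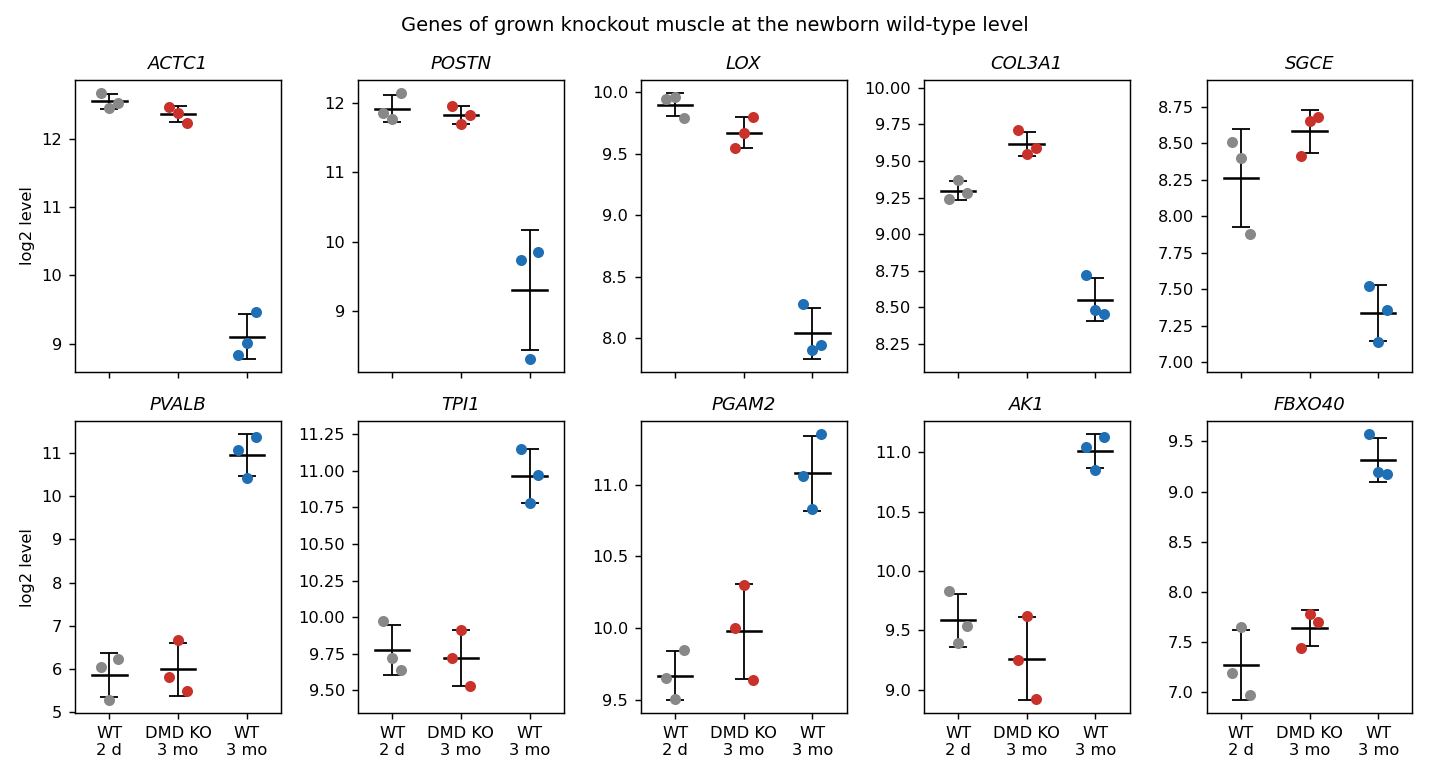
Log2 levels of 10 kept genes in newborn wild type, grown knockout and grown wild type; points are arrays, the short line is the mean of 3 and the bars are 1 SD, and each panel has its own axis. In the upper row grown knockout lies near newborn and above grown wild type, and in the lower row near newborn and below grown wild type.

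Some genes differed from newborn wild type in the same direction in both grown groups. Against newborn, 57 genes were called higher and 26 lower in both grown groups, comparisons that share the newborn arrays. CA3, the carbonic anhydrase of slow fibres, measured 11.55, 12.08 and 11.33 in grown knockout, 8.12, 8.89 and 8.83 in newborn and 12.08, 12.28 and 11.76 in grown wild type. In newborn knockout CA3 was 8.73 to 9.37; change with age within the knockout was not tested. CA3 was 8.22-fold above newborn (3.04 ± 0.26, adjusted p = 3.99e-05), without overlap, and differed from grown wild type by -0.39 (95 percent interval -0.95 to 0.18). GYG1 was of this kind, with 1.15 in grown knockout and 1.33 in grown wild type. TNNC1, slow troponin C, exceeded newborn by 1.48 ± 0.32 (adjusted p = 0.0209), but the call was lost without newborn replicate 1 or 3 or grown knockout replicate 2 or 3 (adjusted p up to 0.0816).

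All but CA3 of the 12 largest rises over newborn wild type were above both references. LYZ, lysozyme, a bactericidal enzyme of phagocytes, measured 8.93, 9.95 and 11 in grown knockout, 5.87, 6.0 and 5.95 in newborn and 6.63, 6.29 and 6.34 in grown wild type. No overlap was seen with either wild-type group, while the knockout arrays spread over 2 log2 units. The LYZ signal differed from newborn by 4.02 ± 0.35 (adjusted p = 4.82e-05), with the newborn arrays below the 25th percentiles. MSR1, the macrophage scavenger receptor, measured 9.15, 8.83 and 10.19 against 6.16 to 6.31 in newborn, a difference of 3.15 ± 0.27 (adjusted p = 3.99e-05). The other large rises were P2RY12 (a purine receptor; 3.67), CTSS (cathepsin S; 3.23, adjusted p = 3.66e-05), BANK1 (a signalling adaptor known from B cells; 3.16), LCP1 (the leukocyte actin bundler; 2.76) and TFEC (a transcription factor of myeloid cells; 2.67). RGS2, a regulator of G-protein signalling, was higher by 3.19. VSIG4, a complement receptor of resident macrophages, was higher by 2.54. These held their calls in all 9 leave-outs.

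Of 14 measured macrophage markers 10 were higher in grown knockout than in newborn, and those 10 were above both (median difference of the 14, 1.05, against -0.03 over all genes). CSF1R, MARCO, C1QA and ITGAM, which define the lineage or its subsets, were the 4 not called, with differences of -0.09, -0.10, 0.07 and 0.09; they are named after their values were seen. The list's mean per array was 8.52 to 9.06 in grown knockout, 7.30 to 7.50 in newborn and 7.26 to 7.69 in grown wild type, and no marker had all group means below the 25th percentiles. In bulk tissue a change in the share of a cell type and a change in its RNA per cell cannot be told apart. The part of these markers in the other genes above both was not tested. T and NK cell markers gave no call by limma among 10 (median 0.10), though CD2 differed by 1.4 and CD3G by 1.01. An unadjusted p under 0.05 was held by 4 of the 10, all higher, against 2573 of all 10283 genes in either direction. Leaving out single arrays gave up to 2 calls, the 2 without grown wild-type replicate 3.

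IL18, a cytokine of the inflammasome pathway, measured 9.47, 9.75 and 9.80 in grown knockout, 6.37, 6.66 and 6.16 in newborn and 7.33, 5.74 and 6.51 in grown wild type. IL18 was above both without overlap, by 3.28 ± 0.29 over newborn (adjusted p = 4.82e-05). Of 20 chemokines and cytokines 4 were higher and 1 lower, with a median of 0.15. The lower one, CCL21, differed by -0.39 and lost its call in 7 of 9 leave-outs. CXCL14 was higher by 1.35 ± 0.16 (adjusted p = 0.000534) and CXCL12, which attracts lymphocytes and progenitors, by 0.87 ± 0.15 (adjusted p = 0.00689). CCL2, the monocyte attractant, measured 9.30, 10.37 and 8.59 against 7.55, 7.80 and 8.16 in newborn, higher by 1.58 ± 0.38 (adjusted p = 0.0349); that call was lost without grown knockout replicate 1 or 2 or newborn replicate 1 or 2 (adjusted p up to 0.0971).

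Most measured complement genes were higher than in newborn. Of 13, 10 exceeded newborn and all 10 were above both (median of the 13, 0.98). C1QA, C1QB and C1QC also stand in the macrophage list, and C1QB and C1QC are among the called genes of both lists. CFI, the protease that inactivates C3b, measured 7.87, 7.99 and 7.99 in grown knockout, 5.36, 5.83 and 5.35 in newborn and 6.05, 5.71 and 5.33 in grown wild type. The knockout arrays were tight and about 2 log2 units from the nearest wild-type array, with a difference from newborn of 2.44 ± 0.19 (adjusted p = 2.3e-05). CLU, clusterin, a chaperone that blocks the terminal complex, was 2.99-fold above newborn (adjusted p = 0.000537). C1S, a protease of the classical pathway, was 2.88-fold above it (adjusted p = 0.00299), and CD59, the membrane inhibitor, 2.42-fold (adjusted p = 0.000654). Leaving out single arrays gave 8 to 10 calls, and the fit on the 6 compared arrays gave 6.

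Within the matrix, members of the same list as the kept genes went past newborn. SPP1, osteopontin, a secreted phosphoprotein of macrophages and regenerating fibres, measured 10.97, 10.74 and 11.37 in grown knockout, 7.48, 7.46 and 8.07 in newborn and 7.98, 7.95 and 8.14 in grown wild type. SPP1 was 10.2-fold above newborn (3.36 ± 0.19, adjusted p = 1.95e-06) and 8.01-fold above grown wild type, without overlap. FN1, fibronectin, measured 10.84, 10.77 and 11.05 against 9.61, 9.75 and 9.38 in newborn and 9.23, 8.75 and 8.81 in grown wild type. FN1 fell in normal growth but was 2.47-fold above newborn in grown knockout (adjusted p = 0.000164). TNC, tenascin-C, measured 8.75, 8.20 and 8.74 against 7.11, 6.96 and 7.32, a 2.71-fold difference (adjusted p = 0.000441). THBS1, thrombospondin-1, was 3.85-fold above newborn (adjusted p = 0.000194). NID2, the basement membrane nidogen-2, was the 1 lower member of 17 (-0.88). Normal growth lowered NID2 as well (-0.67), and its difference from grown wild type, -0.22, was not called (limma, adjusted p = 0.423).

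COL6A3, a chain of the microfibrillar collagen VI, measured 10.58, 10.53 and 10.62 in grown knockout, 9.77, 9.80 and 9.54 in newborn and 9.31, 8.94 and 9.28 in grown wild type. COL6A3 was the 1 of 16 collagens above both, 1.83-fold over newborn (adjusted p = 0.00107); its other probe sets gave 0.68 and 0.27. COL15A1, a basement-membrane collagen, was the 1 lower (-1.14), a call lost in 5 of 9 leave-outs (adjusted p up to 0.2). PLAU, the urokinase plasminogen activator, measured 9.43, 10.19 and 9.42 against 7.28, 7.37 and 7.59 in newborn, 4.81-fold higher (adjusted p = 3.19e-05). FAP, a protease of activated fibroblasts, was the 1 called of 8 fibroblast markers, 3.06-fold above newborn (adjusted p = 0.00482). The fibroblast list's mean was 8.14 to 8.28 in grown knockout, 7.86 to 8.07 in newborn and 7.73 to 7.99 in grown wild type, and its part in the matrix genes was not tested.

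Some fibre genes were also above both references. Of the 6 measured genes listed for developing muscle 2 were called higher than newborn, ANKRD1 and MYL4, while CSRP3, NPPA and NPPB were not called. ANKRD1, CSRP3, NPPA and NPPB are not contractile isoforms. ANKRD1, a stretch-responsive titin-binding protein, measured 11.73, 11.41 and 11.17 in grown knockout, 9.78, 6.45 and 7.52 in newborn and 8.67, 8.57 and 7.40 in grown wild type. The newborn arrays spread over 3 log2 units, all below grown knockout, and ANKRD1 differed by 3.52 ± 0.63 (adjusted p = 0.00709); the fit on the 6 compared arrays did not call it (adjusted p = 0.0969). MYL4, the embryonic and atrial light chain, measured 7.48, 8.20 and 8.18 against 6.35, 6.68 and 6.33 in newborn and 7.04, 6.92 and 6.83 in grown wild type. MYL4 was thus not kept but above both, by 1.5 ± 0.18 over newborn (adjusted p = 0.000441). NCAM1, an adhesion molecule of developing and denervated fibres, measured 9.52, 9.74 and 9.80 against 9.00, 8.67 and 8.84 in newborn and 8.39, 8.40 and 8.17 in grown wild type. NCAM1 was 1.8-fold above newborn (adjusted p = 0.00115), without overlap.

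MYOG, myogenin, the factor that drives myoblast differentiation, was higher than in newborn by 0.59 ± 0.10 (adjusted p = 0.00367). VCAM1, an adhesion molecule of satellite cells and vessels, was 2.01-fold higher (adjusted p = 0.0169), a call lost without grown knockout replicate 2 or 3 (adjusted p up to 0.079). MYOG and VCAM1 were the 2 called of 8 myogenic genes (median 0.17). CHRNG, the fetal subunit of the acetylcholine receptor, measured 8.27, 8.52 and 8.23 against 7.71, 7.83 and 8.02 in newborn, higher by 0.49 ± 0.12 (adjusted p = 0.0447), and lost its call in 6 of 9 leave-outs (adjusted p up to 0.148). RUNX1, a transcription factor induced by denervation, was higher by 0.65 and also lost its call in 6 (adjusted p up to 0.184). With NCAM1 they made 3 of 5 synapse and denervation genes, CHRND and RAPSN being the others, at 0.01 and 0.02. MEST, an imprinted gene of fetal growth, measured 9.76, 9.78 and 9.65 against 9.08, 8.77 and 8.07 in newborn and 7.51, 6.98 and 6.88 in grown wild type. MEST fell in normal growth yet was 2.13-fold above newborn in grown knockout (adjusted p = 0.0258); the call was lost without any 1 knockout array or newborn replicate 3, with an adjusted p of up to 0.0799. ANXA7, an annexin that binds membranes, was 2.73-fold above newborn (adjusted p = 3.16e-05).

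**Figure D3:**
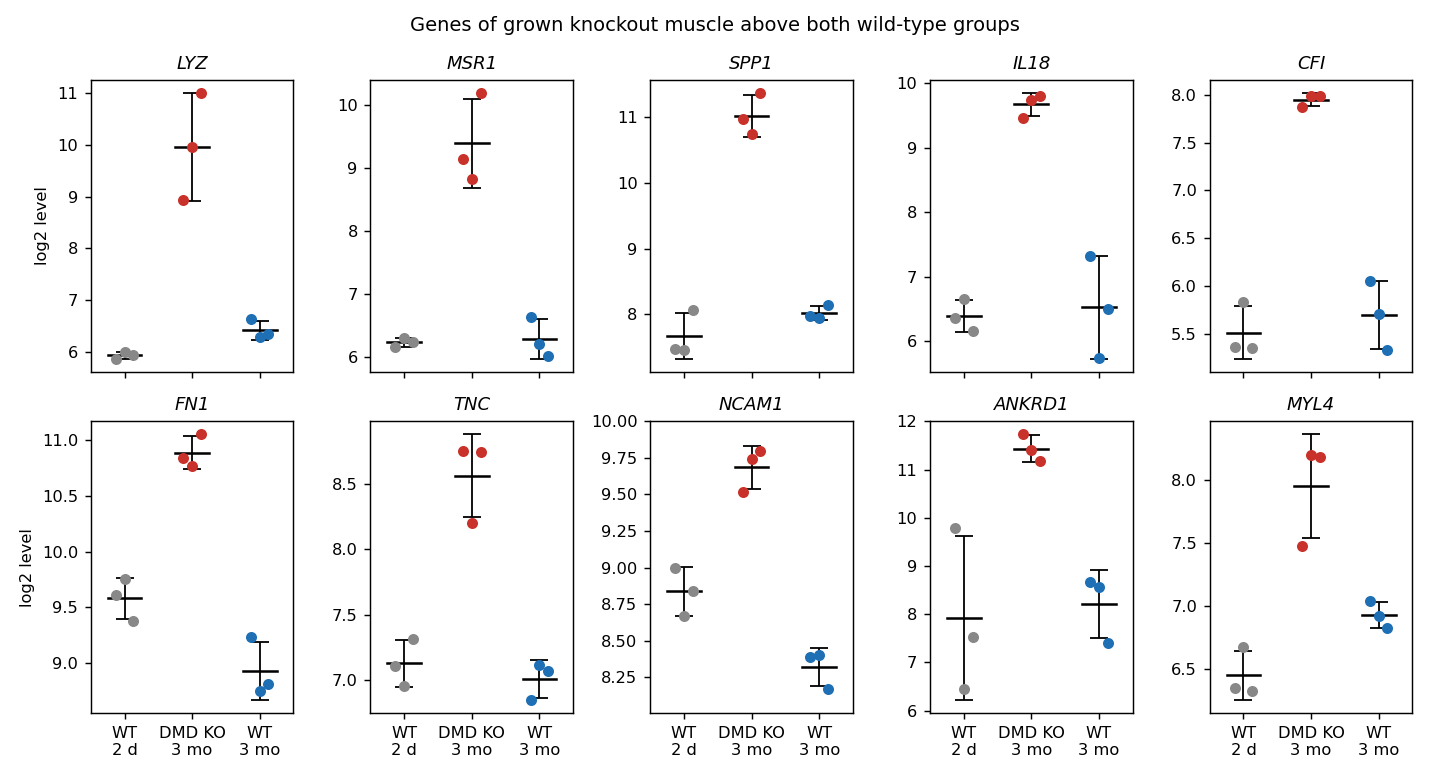
Log2 levels of 10 genes above both wild-type groups; points are arrays, the short line is the mean of 3 and the bars are 1 SD, and each panel has its own axis. Every grown knockout array lies above every wild-type array in each panel, and in the FN1 and NCAM1 panels grown wild type lies below newborn.

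Genes lower in grown knockout than in newborn were fewer, and several belonged to energy metabolism. Of 31 respiratory chain and ATP synthase subunits 9 were lower and none higher, with a median of -0.33. Among all genes 1.2 percent were called lower. Without grown knockout replicate 3 the count of 9 became 3, without replicate 1 it was 5, and quantile normalization gave 14. Against grown wild type 7 of the 31 were lower in grown knockout, and 2 of the 31 were below both. ATP5G1, a membrane subunit of ATP synthase, measured 8.55, 9.07 and 8.80 in grown knockout, 9.90, 10.17 and 9.59 in newborn and 9.86, 9.78 and 9.29 in grown wild type. ATP5G1 was below both without overlap, 2.11-fold under newborn (adjusted p = 0.00398). ATP5G3, a sister gene for the same subunit, measured 10.47, 10.61 and 10.45 against 11.33, 11.64 and 11.36 in newborn, 1.92-fold lower (adjusted p = 0.00149). Normal growth lowered ATP5G3 as well, 1.76-fold, so it was not below both. ATP5B, the catalytic beta subunit, was 1.64-fold under newborn (adjusted p = 0.00735). Against grown wild type ATP5B differed by -0.22 and was not called (limma, adjusted p = 0.397).

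CKMT2, the mitochondrial creatine kinase, measured 8.26, 8.54 and 7.91 in grown knockout, 9.15, 9.53 and 8.99 in newborn and 9.64, 9.62 and 9.32 in grown wild type. CKMT2 was below both without overlap, 1.98-fold under newborn (adjusted p = 0.0127); without grown knockout replicate 3 the difference was -0.82 (adjusted p = 0.0639). NDUFB11, a complex I subunit, was 1.64-fold lower (adjusted p = 0.0108), and not called without grown knockout replicate 3 (adjusted p = 0.0564). Of 18 genes of the citric acid cycle and pyruvate entry, IDH3A was lower, 1.78-fold (adjusted p = 0.00646), and 5 were lower without newborn replicate 3. PDK3, a kinase that shuts pyruvate dehydrogenase, was higher, 2.00-fold (adjusted p = 0.00999, and 0.0533 without grown knockout replicate 3). Normal growth raised PDK3 as well, by 1.13 (limma, adjusted p = 0.00709). Grown knockout differed from grown wild type in PDK3 by -0.13 and was not called (limma, adjusted p = 0.72). AASS, which starts lysine breakdown in mitochondria, measured 6.66, 6.37 and 6.45 against 7.23, 7.26 and 7.23 in newborn and 7.32, 7.28 and 7.46 in grown wild type. AASS was below both (-0.75 ± 0.14, adjusted p = 0.00882) and kept its place in all 9 leave-outs. DKK2, a secreted Wnt modulator, was the 1 gene below both by over 2-fold, at -1.29 against newborn, but was not called without grown knockout replicate 1 or 3 (adjusted p up to 0.0694). Of the 4 measured fibre markers CKMT2 alone was lower, and the other 3 had differences of 0.09 to 0.16.

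Lipid genes also stood among the falls, as they did in normal growth. Of 18 fatty acid genes normal growth lowered 4 (median -0.26), and of 11 cholesterol genes 3 (median -0.49); grown knockout against grown wild type called none in either list. ACSL1, which activates long-chain fatty acids, measured 9.05, 9.44 and 9.51 in grown knockout, 10.69, 11.21 and 10.56 in newborn and 9.80, 9.76 and 8.92 in grown wild type. ACSL1 was 2.81-fold under newborn (adjusted p = 0.00281) and overlapped grown wild type. ACSL1 and 3 others, HADHA, ACAA2 and ETFA, were the lower of 18 fatty acid genes (median -0.33); the count was 7 without newborn replicate 3, 1 without grown knockout replicate 1, and 2 without grown knockout replicate 2 or newborn replicate 1. HADHA was lost without grown knockout replicate 1 or 2 or newborn replicate 1, ACAA2 without grown knockout replicate 1 or 3, and ETFA without any 1 knockout array or newborn replicate 1 or 2 (adjusted p up to 0.0804, 0.0679 and 0.0837). CYP51, a sterol demethylase, measured 7.94, 7.68 and 8.06 against 9.20, 9.48 and 9.03 in newborn and 8.82, 8.04 and 8.72 in grown wild type. CYP51 was 2.54-fold lower (adjusted p = 0.0018) and overlapped grown wild type. MSMO1, a methylsterol oxidase downstream of CYP51, was 2.47-fold lower (adjusted p = 0.0122), SQLE, squalene epoxidase, 3.26-fold (adjusted p = 0.0132, and 0.0594 without grown knockout replicate 2), and SC5D 2.36-fold (adjusted p = 0.0185, lost without grown knockout replicate 1 or 2).

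Of 11 cholesterol genes 5 were lower (median -0.39), and 3 and 2 without grown knockout replicates 1 and 2. The cholesterol list's mean was 7.57 to 7.65 in grown knockout and 8.15 to 8.66 in newborn wild type. It was 7.47 to 7.94 in grown wild type and 7.31 to 7.47 in newborn knockout, so newborn wild type alone stood higher. Adipocyte markers are given beside them: limma called none of 9, with a median of -0.47. An unadjusted p under 0.05 was held by 5 of the 9, all lower, against 2573 of all 10283 genes in either direction. The adipocyte mean was 7.44 to 7.45 in grown knockout, 7.65 to 8.49 in newborn wild type, 7.62 to 7.77 in grown wild type and 7.59 to 7.64 in newborn knockout. Without newborn replicate 1, 5 of the 9 adipocyte markers were lower. Their part in the lipid genes was not tested.

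Single large falls had mixed roles. AGTR1, the angiotensin receptor, measured 6.75, 6.47 and 7.60 against 9.18, 8.74 and 8.20 in newborn, 3.41-fold lower (adjusted p = 0.00447). GOT1, the cytosolic aspartate aminotransferase, was 2.61-fold lower (adjusted p = 0.00388), and RBP7, a retinol-binding protein, differed by -1.46 ± 0.16 (adjusted p = 0.000199). PMP2, the fatty acid carrier of peripheral myelin, had the largest fall (-2.26 ± 0.49, adjusted p = 0.0197), from newborn values of 6.73, 8.77 and 8.76. PMP2 was not called without newborn replicate 3 or grown knockout replicate 1 or 3 (adjusted p up to 0.0828). IL13RA2, ADAMTS20, UGT8 and ACVR1C, at -1.82, -1.51, -1.39 and -1.34, were less firm. IL13RA2 was not called without any 1 grown knockout array, and ADAMTS20 not without grown knockout replicate 3 or newborn replicate 1. A second ADAMTS20 probe set gave -1.98 (limma, adjusted p = 0.0057). UGT8 lost the call without any 1 grown knockout array or newborn replicate 2 or 3. ACVR1C lost it in 7 of 9 leave-outs, all but newborn replicates 1 and 2.

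**Figure D4:**
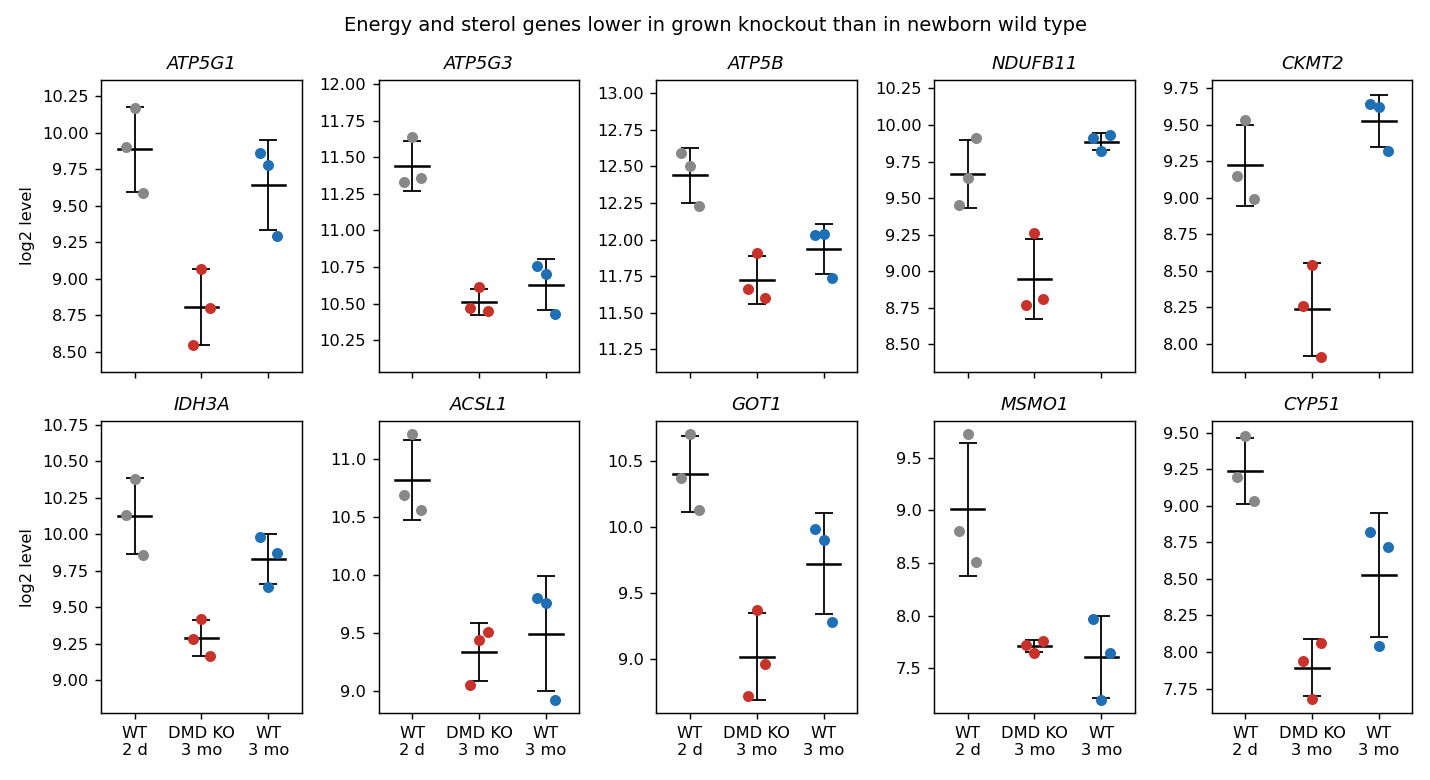
Log2 levels of 10 genes lower in grown knockout than in newborn wild type; points are arrays, the short line is the mean of 3 and the bars are 1 SD, and each panel has its own axis. All grown knockout arrays lie below all newborn arrays; ATP5G1, NDUFB11, CKMT2 and IDH3A lie below grown wild type too, while ACSL1 and MSMO1 overlap it.

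**Figure D5:**
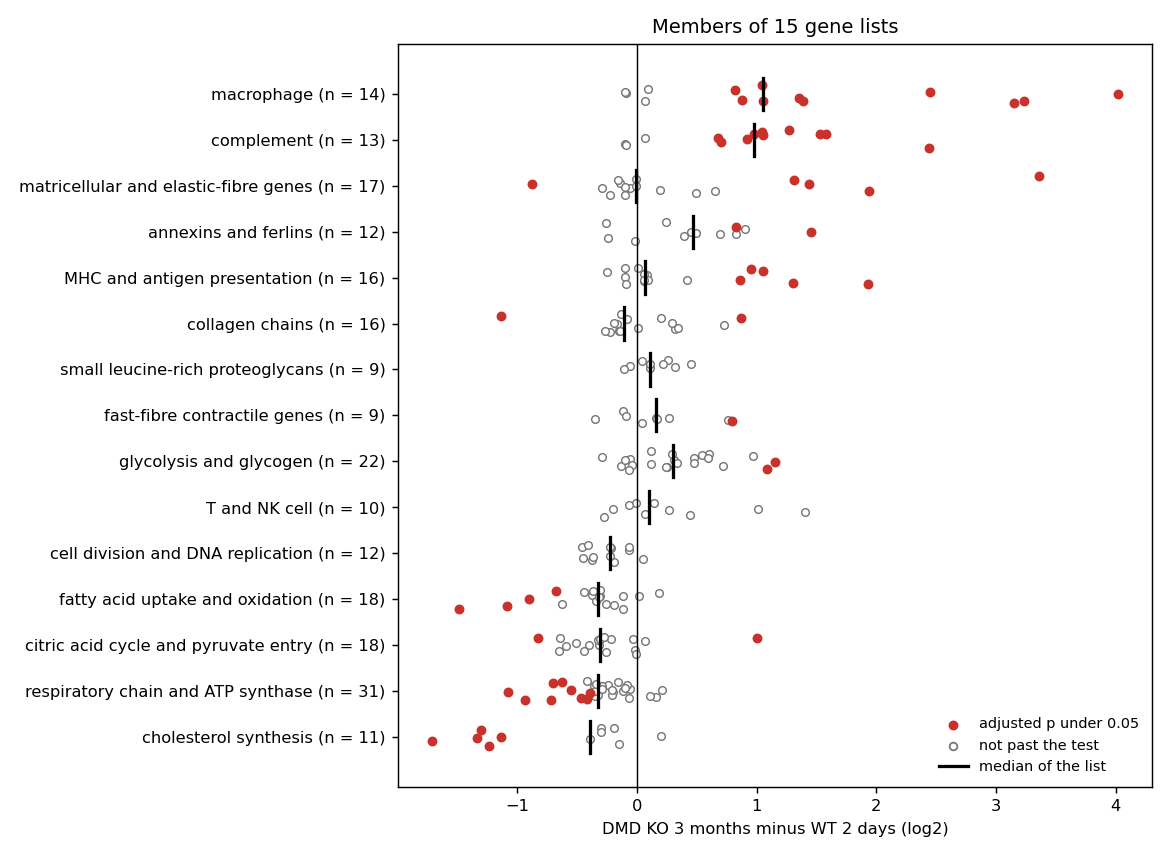
Grown knockout minus newborn wild type, in log2 units, for the measured members of 15 gene lists, 1 point a gene; red points passed limma's test at an adjusted p of 0.05 and black bars are list medians. Macrophage and complement members lie mostly to the right (medians 1.05 and 0.98), collagens and fast-fibre genes near 0, and respiratory chain and cholesterol members mostly to the left (medians -0.33 and -0.39).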

How the data were processed

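Total RNA was labelled and hybridised to Affymetrix arrays, per the labels. The authors deposited one table of log2 values, and the submitters' processing notes name Affymetrix Power Tools; the sources used here do not give how probes were summarised and normalized or any scan batch, and the base of the log was inferred from the range of values, 2.81 to 13.8. On such values a fold is 2 to the power of the difference, and compression by the summary can make it too small. The number of arrays limits the precision. Probe sets were named through the platform annotation given for this work: 11028 had 1 symbol, 418 several and 10447 none; 5 symbols were updated by gene number. Each gene was represented by its brightest probe set, judged on the mean of all 13 arrays. Other probe sets were compared 1 by 1 only for genes named by the rule below, where they existed. Kept genes named in addition were not compared in this way. No gene sequences or genome positions were used here.

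limma 3.58.1 in R 4.3.3 fitted the 4 groups over 13 arrays (lmFit, eBayes, 9 residual degrees of freedom), with Benjamini-Hochberg adjustment over all 21893 probe sets and a threshold of 0.05; 4861 probe sets had an unadjusted p under it. The p-values rest on the spread between animals within the 4 groups, the newborn knockout group included. The fit was tried on simulated data with independent noise in each probe set. Those data lacked the shared axis of spread seen in these arrays, and the classes were not simulated, so the trial does not measure errors here. The genes, lists and classes were chosen with earlier results of these data known. Named were the 12 largest rises and falls without overlap, the 6 kept genes furthest from grown wild type on each side, the 10 genes furthest outside both references on each side, and up to 4 called members of each list in each direction, or 3 by size where none was called. Members of lists that were kept (SPARC, TPI1, SGCE and the like), and members that were not called, were named in addition after their values were seen. Leave-outs drop 1 of the 9 arrays of the 3 groups at a time. Replicate numbers did not pair samples: same-numbered arrays of grown knockout and newborn wild type had correlations of deviations of -0.21, -0.30 and -0.49. Within a group, arrays correlated at 0.935 to 0.987; no pair held identical values. Other alternatives were fits on fewer groups, other variance settings, quantile normalization, centring, filters on dim probe sets, array weights, repeated probe sets and another choice of probe set.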

Additional observations from a re-analysis of the deposited data

Results flagged for a closer look

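The newborn knockout arrays stood in none of the compared groups. They entered the comparisons only through the estimate of spread and the choice of probe set. In all 4 newborn knockout arrays 3 of the 6 genes looked at were above every newborn wild-type array. Those 6 were taken from the genes described above, and the share over all genes was not computed. The count therefore says nothing about newborn knockout as a whole. SPP1 ranged from 10.07 to 10.50 there, against 7.46 to 8.07 in newborn wild type. ANKRD1 ranged from 9.82 to 10.70, against 6.45 to 9.78, and LYZ from 6.57 to 6.81, against 5.87 to 6.0. Grown knockout stood at 8.93 to 11 for LYZ. ACTC1 ranged from 11.57 to 12.54 and PVALB from 5.27 to 5.47 in newborn knockout. POSTN ranged from 8.80 to 10.35, below every newborn wild-type array (11.76 to 12.14) and every grown knockout array (11.69 to 11.95). These differences were not tested here.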

How the results depend on the processing

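The number of probe sets called depended on how the spread was estimated. The fit on the 6 compared arrays called 248. Without the 4 newborn knockout arrays it was 420, with 263 for normal growth and 673 for grown knockout against grown wild type, and 63 kept genes and 142 outside both references; 61 of the 63 and 134 of the genes above both were among those reported. Quantile normalization gave 209 kept genes, 124 of them among the 135 reported, and 72.3 percent of calls higher. Restricting to probe sets above the median level gave 194 genes outside both references. Array weights, whose estimation stopped before it converged, gave 3631, 2562 and 3412 probe sets in the 3 comparisons, 676 kept genes and 751 outside both, with 60.3 percent of calls higher. Leaving out single arrays gave 478 to 1690 probe sets for the comparison, 368 to 757 for normal growth, 702 to 2036 for grown knockout against grown wild type, 73 to 224 kept genes and 159 to 348 outside both. The cause of these moves was not tested, beyond the loss of arrays. Of 95 named genes called, 51 were called in all 9 leave-outs and 41 under every alternative, and no named gene changed direction while called.

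With the replicate block, which numbers without a shared source do not justify, 560, 325 and 829 probe sets were called in the 3 comparisons, with 79 kept genes and 181 outside both references.

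Means below the 25th percentiles of the arrays were given no fold. A p that missed the threshold does not show equal levels.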

Other observations

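Several antigen presentation genes were higher in grown knockout than in newborn wild type. Of 16 genes of the major histocompatibility complex and antigen presentation, 5 exceeded newborn wild type in grown knockout (median 0.07), and 3 of 16 did so in normal growth. SLA-DRA, a class II chain, measured 10.19, 10.58 and 10.12 in grown knockout, 7.94, 8.56 and 8.60 in newborn and 10.49, 10.52 and 9.41 in grown wild type. Grown knockout lay above newborn and overlapped grown wild type, with a difference from newborn of 1.93 ± 0.33 (limma, adjusted p = 0.00528). SLA-DQB1, another class II chain, exceeded newborn 2.08-fold (adjusted p = 0.00182). Without grown knockout replicate 3 the count was 2, and without grown knockout replicate 2 or newborn replicate 1 it was 3. JCHAIN, the joining chain of antibody polymers, was 1.09 above newborn (adjusted p = 0.00217), against 0.87 in normal growth.

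Few genes of several other lists were called. None of 12 cell division genes (median -0.23), 19 interferon-response genes (0.20), 22 heat shock genes (0.22) or 20 cytosolic ribosomal proteins (0.11) passed limma's test in the reported fit. At an unadjusted p under 0.05 there were 1 cell division gene, 0 interferon genes, 3 heat shock genes and 4 ribosomal genes. Among all 10283 genes 2573 had such a p, in either direction. In single leave-outs cell division reached 1 lower and heat shock 1 higher gene. Array weights called 4 interferon genes, 3 cell division genes, 2 ribosomal genes and 1 heat shock gene. Of 13 circadian clock genes BHLHE41, a repressor of the clock, was higher by 2.0 ± 0.29 (adjusted p = 0.00195), from low newborn levels of 5.86, 6.24 and 5.62. Normal growth raised BHLHE41 as well, by 1.37, and its difference from grown wild type, 0.64, was not called (limma, adjusted p = 0.265). Of 13 immediate early genes EGR2 was called (1.86, and 1.19 without grown knockout replicate 2). At an unadjusted p under 0.05, 6 of the 13 were higher and 1 lower, and the list's mean was 7.98 to 8.79 in grown knockout, 7.61 to 7.76 in newborn and 7.92 to 7.99 in grown wild type. Of 7 endothelial markers PECAM1 and KDR were lower, by differences of -0.64 and -0.90, and neither was called without any 1 of the grown knockout arrays or newborn replicate 1 or 2.

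Normal growth and grown knockout against grown wild type were called in opposite directions for 157 genes, of which 135 were kept. ASPN, COL12A1, ANXA2, PPP1R3A, CASQ2 and PDK4 were among those whose interval passed the limit, and they are named after their values were seen. CASQ2, the slow-fibre calsequestrin, measured 11.09, 11.02 and 10.96 in grown knockout, 10.80, 10.40 and 10.05 in newborn and 7.93, 7.73 and 7.01 in grown wild type. PDK4, which restrains pyruvate entry, measured 9.93, 10.01 and 12.10, against 12.24, 11.21 and 10.52 in newborn and 7.18, 7.80 and 6.08 in grown wild type. Neither CASQ2 nor PDK4 was called against newborn, at adjusted p = 0.188 and 0.532.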
